A study of Mus musculus with 6 samples.

Results

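WNT ligands, their receptors, their secreted inhibitors and their intracellular effectors were examined in the transcriptome of cultured mouse granulosa cells (GCs), the somatic cells that surround and nourish the oocyte in the ovarian follicle. The genes were chosen by symbol: *Wnt*, *Fzd*, *Sfrp*, *Dkk*, *Rspo*, *Axin* and *Dvl* genes, *Lgr4*, *Lgr5* and *Lgr6*, *Lrp5* and *Lrp6*, the *Tcf7* genes, *Lef1*, *Ctnnb1*, *Znrf3* and *Rnf43*. Of the 16300 genes in the table, 42 fitted this rule, and all 42 were tested. The mouse annotation holds 59 such names, and the 17 without a row, among them *Wnt1*, *Wnt3a*, *Dkk1*, *Rspo3* and *Lef1*, were not analysed here.

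RNA-seq libraries were made from 3 control and 3 androgen-treated cultures of wild type C57BL/6J GCs from mice aged 8 to 9 weeks. Control cells were given media alone, and treated cells were given 25 nM dihydrotestosterone (DHT), an androgen that cannot be aromatized to estrogen, for 24 h. By the methods of the study, each library comes from pooled GCs of 5 mice, with 3 pooled samples per treatment. The sample labels differ from this in part, since they speak of RNA from whole ovary and of DHT for every sample, and the groups were therefore taken from the characteristic that names the treatment. The labels themselves do not name the pools.

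WNT proteins are secreted lipid-modified ligands that bind a frizzled receptor on the cell surface. Together with an LRP co-receptor, the ligand stops the breakdown of β-catenin (*Ctnnb1*), which then joins TCF/LEF factors in the nucleus and switches on target genes, while other WNT ligands act without β-catenin on cell polarity and calcium. Secreted frizzled-related proteins (SFRPs) bind the ligands, and R-spondins acting through LGR receptors keep the ubiquitin ligases ZNRF3 and RNF43 from removing frizzled receptors. In the ovary, WNT4 and R-spondin 1 are best known for their part in female gonad development, and WNT signals are needed for normal follicle growth.

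The reads behind the values, estimated from the smallest step between values, summed to between 36111177 and 41928585 per library. Of the 10 markers of GCs that were listed, 9 had a row, and *Foxl2*, *Inha*, *Fshr* and *Cyp11a1* were all expressed, whereas *Cyp19a1* had no row and was not analysed here. Among these, *Hsd17b1* and *Cyp11a1* rose and *Foxl2* and *Inha* fell with DHT treatment, though the *Foxl2* call (limma adjusted p = 0.049) was lost without any one library except control replicate 3 (up to 0.14) and the *Cyp11a1* call without DHT replicate 2 or DHT replicate 3 (0.052 for both). Without the intensity trend, the calls of *Hsd17b1* (limma adjusted p = 0.059), *Cyp11a1* (0.073) and *Foxl2* (0.13) were lost. The sum of the 9 GC markers was 208594 to 222357 in control and 228104 to 243719 in DHT libraries, without overlap. Of the smooth muscle and pericyte markers, 4 of 5 had a row, and *Acta2* (log2 fold change 0.76) and *Myh11* (0.67) rose, the latter not without DHT replicate 2 (limma adjusted p = 0.059) or DHT replicate 3 (0.063). Both calls were lost without the intensity trend (limma adjusted p = 0.066 and 0.072). The sum of these 4 markers was 6622 to 9985 in control and 12043 to 14215 in DHT libraries, without overlap. The summed markers of oocyte (375 to 861 against 108 to 639), endothelium (150 to 179 against 141 to 199), stroma (2024 to 2449 against 1733 to 2460), leukocytes (504 to 592 against 409 to 647) and ovarian surface epithelium (4021 to 4643 against 3250 to 4330) overlapped between the groups, and the leukocyte gene *Csf1r* fell, though not without DHT replicate 2 (limma adjusted p = 0.098), DHT replicate 3 (0.10) or control replicate 1 (0.087). The oocyte sum was lowest in DHT replicate 2, in which *Zp3*, *Oosp1* and *Dppa3* were listed at 0. The oocyte marker *Ddx4* differed in this, with 73.1 in DHT replicate 2 and its lowest value, 67.8, in control replicate 2. Of 5 theca markers, *Cyp17a1* and *Insl3* had no row, and the sum of the other 3, nearly all of it *Aldh1a1*, was 134958 to 156030 in control and 123634 to 126173 in DHT libraries, without overlap. *Aldh1a1* (log2 fold change -0.23, limma adjusted p = 0.051) and *Lhcgr* (1.38, limma adjusted p = 0.11), a gene that GCs also express, did not overlap between the groups and were not called. In bulk libraries such as these, fewer cells of a type and less RNA per cell cannot be told apart, and the part of these markers in the results that follow was not tested.

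The sequence just before the start of 3 receptor genes that changed and of *Axin2*, the common feedback target of β-catenin, is shown to let the promoters be compared. Each line gives the 250 bases before the RefSeq start in the mouse build GRCm38.p6, 5′ to 3′ on the strand of the gene. *Fzd4* lies at chr7:89404116-89404365 (plus strand), *Fzd7* at chr1:59481897-59482146 (plus strand), *Fzd1* at chr5:4758217-4758466 (minus strand) and *Axin2* at chr11:108920099-108920348 (plus strand). Capitals mark the GC box GGGCGG, bound by SP factors, and the half-site AGAACA of the androgen response element, on either strand.
Fzd4: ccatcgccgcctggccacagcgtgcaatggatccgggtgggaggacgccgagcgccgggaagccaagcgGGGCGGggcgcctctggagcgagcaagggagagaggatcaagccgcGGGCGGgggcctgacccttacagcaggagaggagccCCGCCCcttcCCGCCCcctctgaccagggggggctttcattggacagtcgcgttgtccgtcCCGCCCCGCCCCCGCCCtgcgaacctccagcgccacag
Fzd7: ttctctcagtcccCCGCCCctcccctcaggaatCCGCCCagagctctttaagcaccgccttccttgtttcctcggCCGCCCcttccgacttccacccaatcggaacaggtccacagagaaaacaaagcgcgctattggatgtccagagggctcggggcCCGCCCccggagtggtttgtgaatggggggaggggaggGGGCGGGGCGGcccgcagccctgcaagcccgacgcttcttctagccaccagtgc
Fzd1: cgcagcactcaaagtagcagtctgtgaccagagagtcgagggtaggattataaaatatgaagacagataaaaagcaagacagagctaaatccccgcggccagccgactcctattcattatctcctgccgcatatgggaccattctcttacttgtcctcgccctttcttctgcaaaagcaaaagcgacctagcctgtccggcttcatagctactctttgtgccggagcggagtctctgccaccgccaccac
Axin2: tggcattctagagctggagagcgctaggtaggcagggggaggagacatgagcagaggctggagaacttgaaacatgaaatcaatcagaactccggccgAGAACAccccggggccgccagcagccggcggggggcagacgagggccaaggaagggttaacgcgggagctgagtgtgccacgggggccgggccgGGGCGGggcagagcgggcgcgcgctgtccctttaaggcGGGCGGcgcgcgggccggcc

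The promoter window of *Fzd4*, a gene that rose with DHT, held 7 GC boxes, and that of *Fzd7*, a gene that fell, held 6. The *Fzd1* window held none. The 27 WNT genes with a RefSeq entry had 34 windows, of which 24 held GGGCGG, beside 32.7% of all 32851 promoter windows. The median GC content was 68% for the 34 windows of WNT genes and 52.4% for all windows. The half-site AGAACA was found in 5 of the 34 windows (in *Axin2*, *Dkk2*, *Rnf43*, *Tcf7l2* and *Wnt5b*) and in 16.1% of all windows. None of the 7 changed genes with an entry held it in these 250 bases. The TCF motif, searched as CTTTGAA or CTTTGAT on both strands, was found in 2 of the 34 windows (*Wnt11* and *Wnt5b*) and in 7.48% of all windows. A match of letters is a description and not evidence of binding, and distal elements were not searched.

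The normalized count of each gene was compared between control and DHT on the log2(value + 1) scale, and limma called a gene where its adjusted p was 0.05 or lower. DHT treatment raised 4 of the 42 WNT genes (*Sfrp4*, *Fzd4*, *Dkk3* and *Tcf7*) and lowered 6 (*Fzd7*, *Fzd1*, *Fzd8*, *Fzd5*, *Lgr6* and *Lgr4*). Among all 16292 genes tested, 11.2% were called, 6.52% higher and 4.66% lower. The median log2 fold change was -0.01 for the WNT genes and -0.01 for all genes. In the limma fit, no WNT gene passed the stricter rule of the study, which also asks for an absolute log2 fold change above 1. In this fit the rule was met by 1.31% of all genes, whereas the study applied it to DESeq2 tests. An unadjusted limma p of 0.05 or lower was found for 19 of the 42 and for 25.2% of all genes. Of the 19, 1, *Wnt7b*, had an absolute log2 fold change above 1. The groups did not overlap for 19 of the 42 WNT genes and for 30.6% of all genes. The calls lay in the receptors, the secreted inhibitors and 1 nuclear factor. The count of WNT genes that rose was 2 without DHT replicate 2, whose oocyte marker sum was lowest, and also 2 without DHT replicate 3 or without control replicate 1. The count that fell was 3 without DHT replicate 2.

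**Figure D1:**
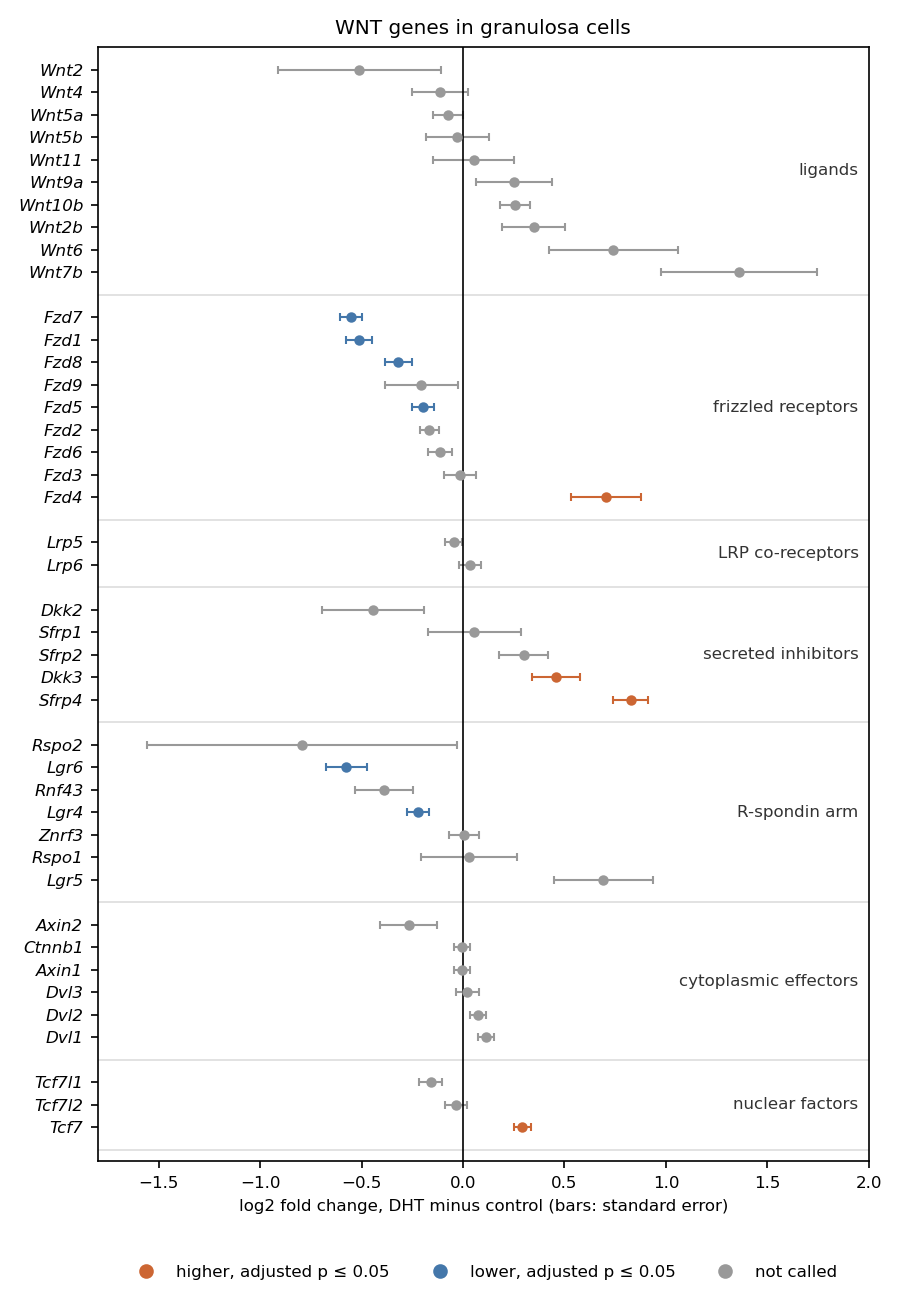
Log2 fold change of normalized counts, DHT minus control, for the 42 WNT genes grouped by role, with bars for the standard error (3 libraries per group). Orange points are the 4 genes that rose and blue points the 6 that fell (adjusted p of 0.05 or lower), and 4 of the 6 lie among the frizzled receptors.

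Frizzled receptors bind the WNT ligands, and they held the largest number of changes. Of the 9 receptors measured, 4 fell and 1 rose, with a median log2 fold change of -0.20. *Fzd7* (chromosome 1, 59482424 to 59486955) had normalized counts of 2063, 1890 and 1906 in the control libraries and 1318, 1398 and 1277 in the DHT libraries. Every DHT library was below every control library, and the log2 fold change was -0.55 ± 0.05 (SE, limma adjusted p = 0.00039). *Fzd1* (chromosome 5, 4753839 to 4758035) had 814, 773 and 749 in control and 525, 576 and 537 in DHT libraries. The groups were again apart, with a log2 fold change of -0.51 ± 0.06 (SE, limma adjusted p = 0.0012). Both genes were called with each library left out in turn.

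*Fzd8* had 650, 639 and 614 in control and 513, 477 and 538 in DHT libraries (log2 fold change -0.32 ± 0.07 SE, limma adjusted p = 0.017). *Fzd5* (chromosome 1, 64730558 to 64737751) had 1391, 1253 and 1317 in control and 1140, 1178 and 1133 in DHT libraries (-0.20 ± 0.05 SE, limma adjusted p = 0.042). The groups did not overlap for either gene, but the falls were smaller than those of *Fzd7* and *Fzd1*. *Fzd5* overlaps the gene *Gm38058* on the other strand, and the strand setting of the read counting is not given in the sources used here. The *Fzd8* call was lost without DHT replicate 2 (limma adjusted p = 0.077) and without control replicate 2 (0.052), and the *Fzd5* call was lost without any one library except control replicate 2 (limma adjusted p = 0.063 without control replicate 3, 0.117 without control replicate 1, and 0.110, 0.099 and 0.138 without DHT replicates 1, 2 and 3) and also without the intensity trend (0.11).

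*Fzd4*, which besides WNTs is the receptor of norrin, moved the other way. Its normalized counts were 1762, 2057 and 3029 in control and 4127, 3377 and 3413 in DHT libraries (chromosome 7, 89404355 to 89413134). All DHT libraries lay above all control libraries, but control replicate 3 stood well above the other 2 controls. The log2 fold change was 0.70 ± 0.17 (SE, limma adjusted p = 0.030). Without control replicate 3 it was 0.93 (limma adjusted p = 0.00043), whereas the call was lost without control replicate 1 (0.063), control replicate 2 (0.099) or DHT replicates 1, 2 or 3 (0.095, 0.069 and 0.084), and also without the intensity trend (0.14).

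The remaining frizzled genes were not called. *Fzd2* had 3355, 3682 and 3343 in control and 3038, 3160 and 3033 in DHT libraries, without overlap (log2 fold change -0.17, limma adjusted p = 0.051). *Fzd2* was called in 4 alternatives, with a mean of at least 50 (limma adjusted p = 0.045), a pseudocount of 8 (0.049), quantile normalization (0.049) or without control replicate 3 (0.038). *Fzd3*, *Fzd6* and *Fzd9* overlapped between the groups. The frizzled genes without introns (*Fzd1*, *Fzd2*, *Fzd7*, *Fzd8* and *Fzd9*) all had negative log2 fold changes, from -0.55 to -0.17, and 3 of these 5 were called lower. Among all 340 single-exon protein-coding genes, 4.12% were called lower and 5.29% higher. Of the 4 frizzled genes with introns, 1 was called lower and 1 higher. Among all 13418 protein-coding genes with introns, 5.31% were called lower and 7.43% higher. The split by introns was not among the planned comparisons.

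Divided by exonic length, *Fzd2* had the highest level of the family in both groups, with 945 ± 52 normalized counts per kilobase in control and 840 ± 20 in DHT libraries (SD, n = 3). In control GCs, *Fzd7* (431 ± 21), *Fzd6* (390 ± 32) and *Fzd4* (340 ± 99) followed and did not differ beyond their spread. In DHT-treated GCs, *Fzd4* came second with 542 ± 63, ahead of *Fzd6* with 360 ± 12 and *Fzd7* with 294 ± 14. The share of *Fzd4* in the summed frizzled level went from 12.5% ± 3.2 to 21.4% ± 2.1, and that of *Fzd7* from 16.0% ± 1.2 to 11.6% ± 0.44 (SD, n = 3 for each). The summed level itself was 2701 ± 93 per kilobase in control and 2522 ± 69 in DHT libraries, without overlap. An exact two-sided permutation test gave p = 0.1 for this sum, the smallest that 3 against 3 libraries allow, and 0.17 after Benjamini-Hochberg adjustment over the 10 families tested.

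**Figure D2:**
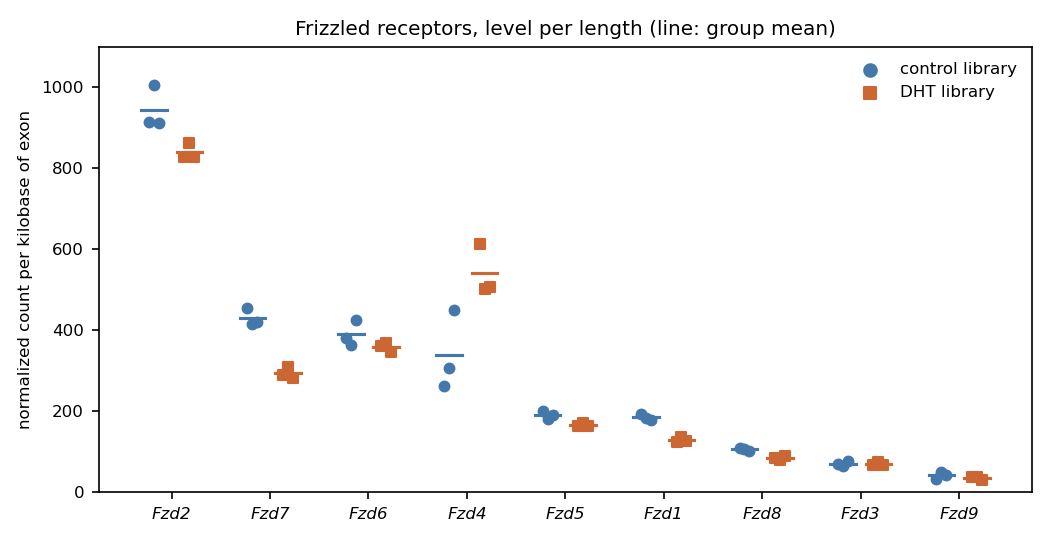
Normalized count per kilobase of exon (linear axis) for the 9 frizzled genes in each control library (blue circles) and DHT library (orange squares), with lines for the group means. *Fzd4* moved from 340 to 542 and *Fzd7* from 431 to 294, and *Fzd2* stayed the highest in both groups.

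The LRP co-receptors pair with frizzled receptors in β-catenin signaling, and neither was called by limma or had an unadjusted p of 0.05 or lower. *Lrp6* had 6035, 6058 and 6654 in control and 6672, 6494 and 6015 in DHT libraries. *Lrp5* had 3557, 3701 and 3669 in control and 3686, 3448 and 3449 in DHT libraries. The groups overlapped for both, with log2 fold changes of 0.03 (limma adjusted p = 0.75) and -0.05 (0.53).

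Secreted inhibitors act outside the cell, SFRPs on the ligands and most dickkopf proteins on the LRP co-receptors, and 2 of the 5 measured rose, with none falling. *Sfrp4* (chromosome 13, 19623104 to 19632994), which in the ovary is known from luteinizing GCs, had normalized counts of 18961, 23301 and 23173 in control and 37877, 35583 and 42296 in DHT libraries. The lowest DHT library was well above the highest control library. The log2 fold change was 0.83 ± 0.09 (SE, limma adjusted p = 0.00058), which is 1.77-fold on the ratio of means, and the call held with each library left out. *Dkk3*, a dickkopf relative that differs from the others in this, had 1131, 1498 and 1129 in control and 1537, 1676 and 1926 in DHT libraries (chromosome 7, 112116017 to 112159057). The gap between the groups was narrow (log2 fold change 0.46 ± 0.12 SE, limma adjusted p = 0.037), and the call was lost without DHT replicate 2 (0.10), DHT replicate 3 (0.142), control replicate 1 (0.102) or control replicate 3 (0.072), and also without the intensity trend (0.15).

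*Sfrp2* was the most abundant WNT gene per length and ranked 66 among all genes of the table in mean level per kilobase. It had 23036, 28339 and 31193 in control and 38784, 29719 and 32831 in DHT libraries. DHT replicate 2 lay below control replicate 3, and the log2 fold change of 0.30 was not called (limma adjusted p = 0.16). *Sfrp4* ranked 188, with 5219 ± 591 normalized counts per kilobase in control and 9233 ± 816 in DHT libraries (SD, n = 3). Its share of the summed SFRP level went from 29.1% ± 1.2 to 37.2% ± 3.3. The sum of the 3 SFRP genes was 18014 ± 2484 in control and 24934 ± 2410 in DHT libraries, without overlap (exact permutation p = 0.1, 0.17 adjusted over 10 families). Of the 4 smooth muscle markers, 2 rose in the same libraries, as given above, and their part in the rise of *Sfrp4* was not tested. *Dkk2* and *Sfrp1* overlapped between the groups.

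**Figure D3:**
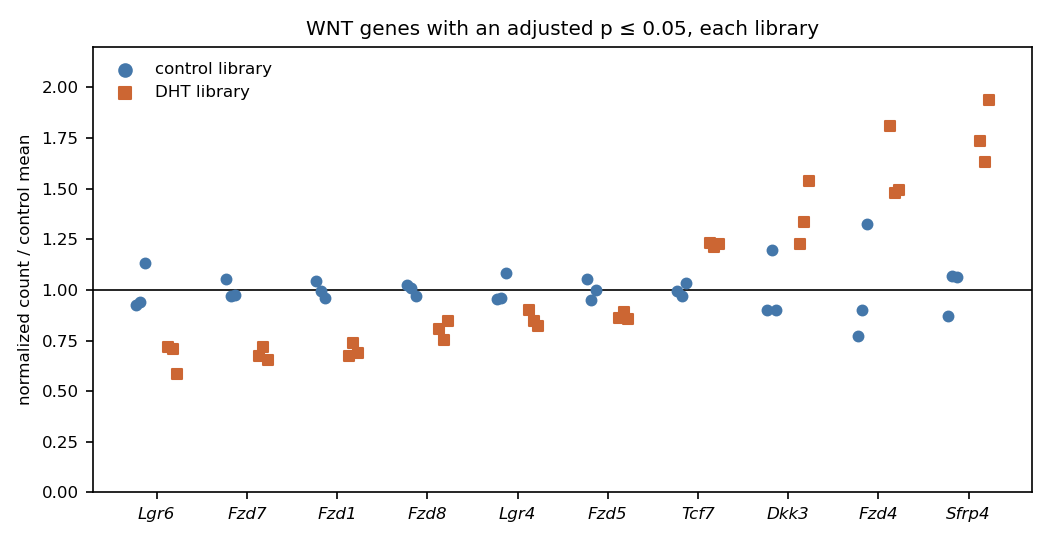
Normalized count of the 10 called WNT genes in each library, divided by the control mean of the gene (linear axis, black line at 1), with control libraries as blue circles and DHT libraries as orange squares. *Sfrp4* shows the largest rise with DHT and *Lgr6* the largest fall, and the spread of the control libraries is widest for *Fzd4*.

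The R-spondin arm decides how many frizzled receptors stay at the cell surface, and 2 of its 7 measured genes fell. *Lgr6*, an R-spondin receptor, had 937, 951 and 1148 in control and 725, 719 and 591 in DHT libraries (chromosome 1, 134983301 to 135105276). The groups did not overlap, the log2 fold change was -0.58 ± 0.10 (SE, limma adjusted p = 0.0074). The call held with each library left out and was lost without the intensity trend (0.064). *Lgr4* (chromosome 2, 109917647 to 110014257) had 4676, 4704 and 5291 in control and 4398, 4141 and 4029 in DHT libraries. Its fall was smaller (-0.22 ± 0.06 SE, limma adjusted p = 0.036) and was lost without DHT replicate 2 (0.122), DHT replicate 3 (0.137), control replicate 2 (0.053) or control replicate 3 (0.052), and also without the intensity trend (0.14). *Lgr4* was by far the most abundant of the 3 receptors per length (831 ± 59 normalized counts per kilobase in control and 712 ± 32 in DHT libraries), and the sum of the 3 went from 982 ± 77 to 816 ± 41 without overlap between libraries (exact permutation p = 0.1, 0.17 adjusted).

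*Lgr5*, a feedback target of WNT signaling in many tissues, was near the bottom of the table, with 20.8, 33.5 and 36.1 in control and 45.0, 46.9 and 52.2 in DHT libraries. The groups did not overlap, but the log2 fold change of 0.69 was not called (limma adjusted p = 0.11). The ubiquitin ligase genes, also feedback targets, were not called either. *Znrf3* had 1155, 1229 and 1385 in control and 1349, 1195 and 1230 in DHT libraries, a log2 fold change of 0.00. *Rnf43* had 164, 139 and 129 in control and 104, 125 and 100 in DHT libraries (-0.39, limma adjusted p = 0.13), without overlap.

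*Rspo1* and *Rspo2*, the only R-spondin ligands with a row, were both at low levels. *Rspo2*, which in the ovary is made by the oocyte, had 40.6, 13.9 and 12.04 in control and 25.4, 2.18 and 17.4 in DHT libraries, from an estimated 2 to 41 reads per library. The sum of 8 oocyte markers in the same libraries was 861, 375 and 375 in control and 616, 108 and 639 in DHT libraries. Control replicate 1 was the highest and DHT replicate 2 the lowest for both, and the groups overlapped for both. The share of oocyte RNA in the *Rspo2* values was not tested.

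**Figure D4:**
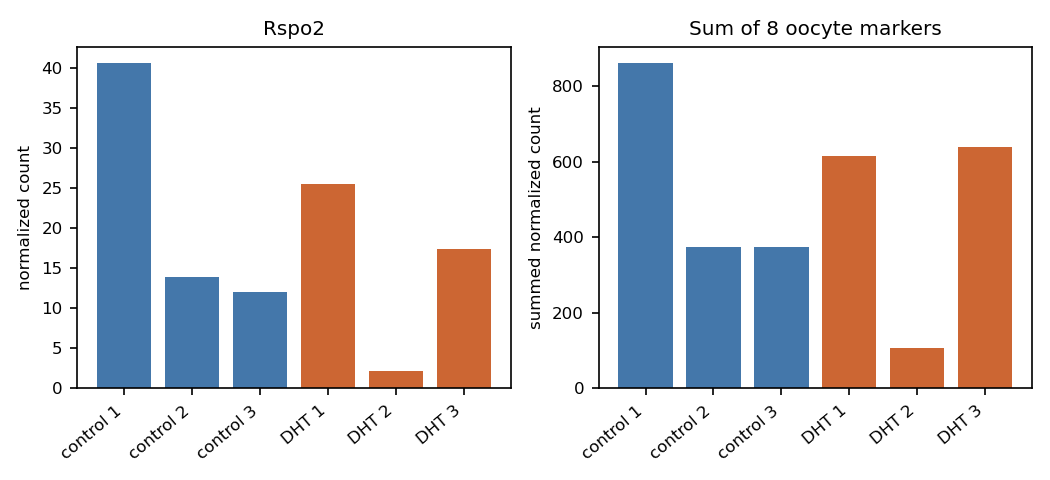
Normalized count of *Rspo2* (left) and summed normalized count of 8 oocyte markers (right) in each library, as bars on linear axes from 0, control in blue and DHT in orange. DHT replicate 2 is the lowest in both panels, with 2.18 for *Rspo2* and 108 for the markers.

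None of the 10 ligands measured was called by limma, 3 had an unadjusted p of 0.05 or lower, and their median log2 fold change was 0.15. *Wnt5a*, which acts mainly without β-catenin, was the most abundant ligand per kilobase of exon, with 24653, 23226 and 19855 normalized counts in control and 20628, 21965 and 21492 in DHT libraries. The groups overlapped (log2 fold change -0.07, limma adjusted p = 0.58). *Wnt10b*, a ligand of the β-catenin branch, was the second, with 7275, 7197 and 6319 in control and 7437, 8512 and 8889 in DHT libraries. These groups were apart, and the log2 fold change of 0.26 missed the threshold (limma adjusted p = 0.060), though it passed without DHT replicate 1 (0.33, adjusted p = 0.020). The share of *Wnt10b* in the summed ligand level was 38.3% ± 1.1 in control and 43.7% ± 1.4 in DHT libraries, and that of *Wnt5a* 54.1% ± 0.52 and 49.1% ± 1.8 (SD, n = 3). With the longest transcript as the length, the order of the 2 was not kept in DHT libraries, where each held 46.8%. The summed ligand level overlapped between the groups.

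*Wnt7b* had the largest log2 fold change of the 42 genes at one of the lowest levels. It had 12.9, 11.2 and 5.56 in control and 16.6, 32.7 and 30.5 in DHT libraries, from an estimated 6 to 30 reads per library. The log2 fold change was 1.36 ± 0.39 (SE, limma adjusted p = 0.055), and without DHT replicate 1 it was 1.66 and passed both thresholds of the study (limma adjusted p = 0.0405). With a pseudocount of 8 it was called at 0.94 (limma adjusted p = 0.048). *Wnt7b* overlaps the gene *AU022754* on the other strand. *Wnt2b* had means of 56.5 in control and 72.4 in DHT libraries without overlap (log2 fold change 0.35, limma adjusted p = 0.21). *Wnt4*, the WNT gene best known in the ovary, had means of 1312 and 1204, with a log2 fold change of -0.11 (limma adjusted p = 0.66) that was 0.03 without control replicate 1.

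The cytoplasmic effectors carry the signal from the receptors to the nucleus, and none of the 6 was called by limma (1 at an unadjusted p of 0.05 or lower). β-catenin (*Ctnnb1*) had a mean of 27455 ± 569 in control and 27352 ± 698 in DHT libraries (SD, n = 3), and its libraries were 27923, 26822 and 27620 against 26938, 26961 and 28158. *Axin1*, the scaffold of the complex that destroys β-catenin, had 2644, 2696 and 2791 in control and 2746, 2639 and 2728 in DHT libraries. Both log2 fold changes lay at 0 to within 0.01, with standard errors of 0.04. *Axin2*, the feedback target, had 619, 682 and 523 in control and 413, 513 and 596 in DHT libraries, with overlap (log2 fold change -0.27 ± 0.14 SE, limma adjusted p = 0.27). The dishevelled genes *Dvl1* (means 2493 and 2695, log2 fold change 0.11, limma adjusted p = 0.10) and *Dvl2* (means 1853 and 1950, 0.07, adjusted p = 0.30) did not overlap between the groups and were not called.

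Of the nuclear factors, *Tcf7*, which encodes the β-catenin partner TCF1 and is itself a WNT target, rose. It had 1445, 1406 and 1496 in control and 1782, 1758 and 1779 in DHT libraries (chromosome 11, 52252371 to 52283014). The DHT libraries were close to each other and above all controls (log2 fold change 0.29 ± 0.04 SE, limma adjusted p = 0.0028), and the call held with each library left out. *Tcf7l1*, mostly a repressor, had 760, 803 and 828 in control and 731, 719 and 690 in DHT libraries without overlap (-0.16, limma adjusted p = 0.12), and *Tcf7l2* overlapped. *Tcf7* made up 60.04% ± 0.60 of the summed level of these 3 genes in control and 66.4% ± 0.57 in DHT libraries (SD, n = 3), or 47.4% and 53.96% where the longest transcript stood for the length. Of the 5 feedback targets among the 42 genes (*Axin2*, *Lgr5*, *Tcf7*, *Znrf3* and *Rnf43*), *Tcf7* was the one that was called.

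Other genes of the pathway were counted from a list of 134 symbols, in which 4 (*Ccn1*, *Ccn4*, *Tle5* and *Troy*) are second names of listed genes. Of the 117 with a row, 11 rose and 14 fell, beside 6.52% and 4.66% of all genes, and the median log2 fold change was 0.01. The count that fell was 9 without DHT replicate 2 or without DHT replicate 3. Of the 3 genes with a row in the list on ligand secretion and removal, 1 rose and 2 fell. *Porcn*, the acyltransferase that lipid-modifies WNTs, had 460, 480 and 443 in control and 805, 928 and 1099 in DHT libraries. All DHT libraries were far above the controls (log2 fold change 1.02 ± 0.10 SE, limma adjusted p = 0.00045). *Wls*, the carrier that takes the modified ligand to the cell surface, fell from a mean of 15813 to 13406 (-0.24, limma adjusted p = 0.0040). *Tinagl1* fell from 26188 to 21212 (-0.30, limma adjusted p = 0.0030).

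Of the 10 other inhibitors measured, 2 fell. *Trabd2b*, which encodes the WNT-cleaving membrane protease TIKI2, had 1590, 1197 and 1208 in control and 707, 626 and 590 in DHT libraries (log2 fold change -1.04 ± 0.11 SE, limma adjusted p = 0.00059). Together with *Porcn*, it was past both thresholds of the study. The call of each held with any one library left out, but the log2 fold change of *Trabd2b* did not reach the fold threshold without control replicate 1 (-0.91) or DHT replicate 3 (-0.99), nor did that of *Porcn* without DHT replicate 3 (0.91) or control replicate 3 (0.99). *Tmem64* fell by 0.21 on the log2 scale (limma adjusted p = 0.020). Among 14 co-receptors and other receptors, *Sdc1*, a heparan sulfate proteoglycan, rose from 7565 to 11836 (0.65, limma adjusted p = 0.00034), *Ror1*, a WNT5A receptor, rose from 787 to 1098 (0.48, limma adjusted p = 0.0038), and *Ptk7* fell (-0.19, limma adjusted p = 0.041). The *Tmem64* call was lost without any one DHT library (limma adjusted p = 0.063 to 0.071), and the *Ptk7* call was lost without any one library except control replicate 1 (0.071 to 0.13).

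In the destruction complex and its turnover, 2 of 30 genes were called, *Frat2* (log2 fold change 0.39, limma adjusted p = 0.029) and *Csnk1g2* (0.13, limma adjusted p = 0.046), both higher. The *Csnk1g2* call was lost without any one library (limma adjusted p = 0.056 to 0.17), and the *Frat2* call was lost without DHT replicate 2 (0.12), DHT replicate 3 (0.11), control replicate 1 (0.079) or control replicate 2 (0.078). Of 20 nuclear partners, 2 rose and 4 fell. The Groucho co-repressors, which bind TCF factors in the absence of β-catenin, moved in both directions. *Tle2* (1641 to 2321, log2 fold change 0.50, limma adjusted p = 0.00034) and *Tle1* (2864 to 3851, 0.43, limma adjusted p = 0.00066) rose, while *Tle3* (2855 to 2233, -0.36, limma adjusted p = 0.0011) fell. *Pygo1*, a co-activator of β-catenin, fell (-0.28, limma adjusted p = 0.012), a call that was lost without DHT replicate 2 (0.067).

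In the planar polarity and calcium branch, 3 of 29 genes rose and 3 fell. *Nfatc2*, a calcium-dependent transcription factor, had the largest rise, from 204 to 390 (log2 fold change 0.94, limma adjusted p = 0.0028), and *Camk2d*, a calcium-dependent kinase, rose by less (0.26, limma adjusted p = 0.0020). Its paralog *Camk2g*, named after its values were seen, fell from 6264 to 5219 (-0.26, limma adjusted p = 0.0036). *Prickle2*, a planar polarity protein, fell from 383 to 232 (-0.72, limma adjusted p = 0.0031), and *Prkca* fell (-0.30, limma adjusted p = 0.0073). Of 17 common transcriptional targets outside the 42 genes, 1 rose and 2 fell. The secreted WNT target *Wisp1* rose from 3124 to 5170 (0.73, limma adjusted p = 0.0011). *Ccnd1*, which encodes cyclin D1, fell from 184 to 113 (-0.71, limma adjusted p = 0.039), and *Id2* fell from 3454 to 2216 (-0.62, limma adjusted p = 0.027). The *Ccnd1* call was lost without any one library except control replicate 2 (limma adjusted p = 0.053 to 0.11), and the *Id2* call was lost without DHT replicate 2 (limma adjusted p = 0.087) or DHT replicate 3 (0.112). Without the intensity trend, the calls of *Ccnd1*, *Id2*, *Csnk1g2*, *Frat2*, *Ptk7* and *Tmem64* were lost (limma adjusted p = 0.095 to 0.14), and that of *Csnk1g2* was also lost with quantile normalization (0.068).

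**Figure D5:**
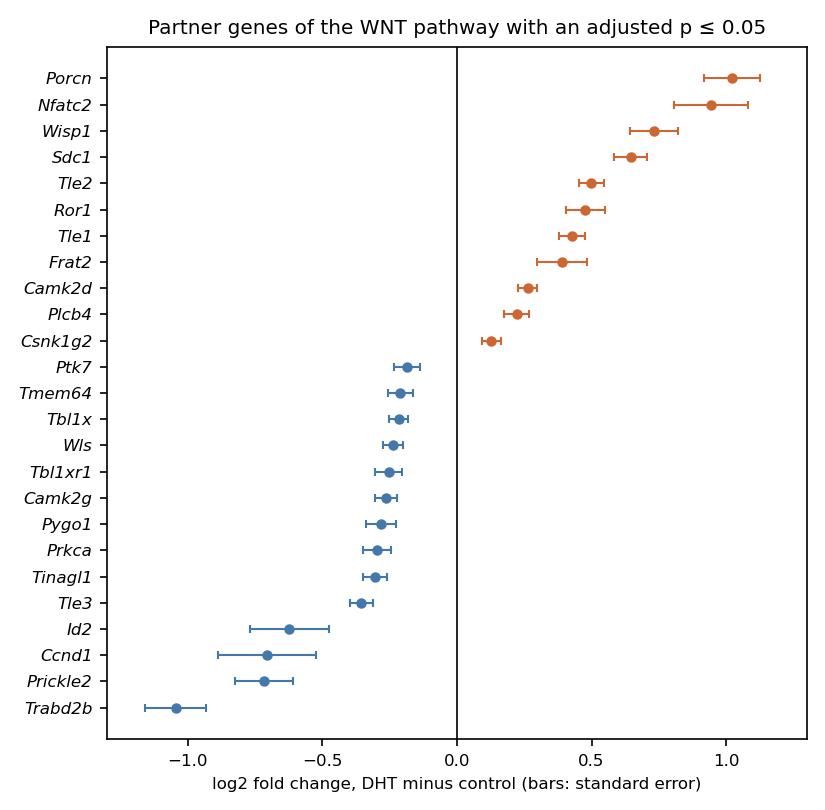
Log2 fold change of normalized counts, DHT minus control, for the 25 called partner genes of the WNT pathway, with bars for the standard error (3 libraries per group), orange for higher and blue for lower. *Porcn* (1.02) and *Trabd2b* (-1.04) lie at the ends of the range.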

How the data were processed

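Reads were trimmed with Trimmomatic 0.36, mapped to GRCm38 with STAR 2.5.2b and counted with featureCounts of Subread 1.5.2, per the labels. The authors deposited a signal per gene, the count normalized with size factors in DESeq2. Every value was a whole multiple of a step per library (tolerance 0.001), which gave the depth. In control replicates 1 and 2 and DHT replicate 1 the step is less sure (it lay close to 1, or no gene held 1 read), so no count test was run and the reads given are estimates. A deposited fold change and p-values of the authors were not used, nor was a second table that repeats part of the genes.

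A moderated test with an intensity trend was run in limma 3.58.1 (R 4.3.3), first on simulated data. It took log2(value + 1) of the 16292 genes whose mean reached 10, and its p-values were adjusted by Benjamini-Hochberg over them. The pseudocount understates the fold change of low genes. Lengths, positions and overlaps came from the GENCODE annotation of GRCm38, and promoters from RefSeq. Named were called members, the 2 members per role with the highest level per kilobase, feedback targets, members without overlap, and up to 2 called partners per list and direction. *Wnt4*, *Camk2g* and the R-spondins were added after their values were seen. The members and lists were chosen with earlier results of these data known. Replicate numbers are shared between the groups in the labels, but the labels do not say whether they mark a shared pool. The statistical methods of the study name a paired t test, but do not say whether the RNA-seq pools were shared between treatments. Libraries were not paired in the main fit.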

Additional observations from a re-analysis of the deposited data

How the results depend on the processing

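The 14 alternatives were pseudocounts of 0.5 and 8, no filter, a mean of at least 50, TMM scaling, quantile normalization, no intensity trend, a replicate block and each library left out. *Sfrp4*, *Tcf7*, *Fzd7* and *Fzd1* were called in every alternative, and *Lgr6* in all except no intensity trend. The count of WNT genes higher in DHT, 4 in the report, was 2 without the intensity trend and 2 to 5 with a library left out. The count lower, 6 in the report, was 3 without the intensity trend and 3 to 5 with a library left out. The count past both thresholds was 0 to 1 with a library left out. Partner genes higher were 11 in the report and 8 to 15 with a library left out, and partner genes lower were 14 in the report and 9 to 16 with a library left out. Partner genes lower were 9 without DHT replicate 2 and also without DHT replicate 3. With the replicate block, 2 WNT genes were higher and 3 lower, 8 partner genes were lower, and 990 of all genes were called in place of 1823. The WNT calls lost with this block were those of *Fzd4* (limma adjusted p = 0.067), *Fzd5* (0.13), *Fzd8* (0.069), *Dkk3* (0.061) and *Lgr4* (0.11). The deviations of same-numbered libraries had correlations of 0.0058, 0.067 and -0.24, and not every library correlated best with its own number. Each deviation was taken from a mean of only 3 libraries, so these correlations cannot show whether same-numbered libraries share a pool.

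With a library left out, the log2 fold change changed sign for 12 of the 42 WNT genes, none of them called. Among those with a printed value, that of *Znrf3* was -0.0096 with quantile normalization and -0.055 to 0.076 with a library left out, that of *Wnt4* was -0.26 to 0.031, that of *Axin1* was -0.021 to 0.018 and that of *Ctnnb1* was -0.027 to 0.0068 with a library left out. Count tests in edgeR and DESeq2 were planned for the case that whole reads could be used. They were not run, since the step of 3 libraries was not sure enough. With the longest transcript in place of the exonic length, 38 levels and shares moved by more than the spread between libraries and 28 did not. Depth limits *Wnt7b*, *Rspo2* and *Lgr5*, which had few reads. Without the intensity trend, 804 of all genes were called, and the cause was not tested.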
